A study of Mus musculus with 4 samples.

Results

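The genes described here are 10 immediate early genes, Fos, Fosb, Fosl2, Jun, Junb, Egr1, Egr2, Egr3, Ier2 and Atf3, out of 22180 genes with a named probe set. The 10 are called AP-1 and EGR genes below, although Ier2 belongs to neither group. They were taken by symbol from the array annotation, and each probe set was selected on its mean log2 value over the 4 arrays, the highest per gene among those with exactly 1 symbol. Each of the 10 had exactly 1 such probe set, so the choice by mean had no effect. The list itself was chosen by a reading of the sex difference on these same arrays, so their levels and sex differences are given as a description. The fit across all probe sets is given once, and nothing is read from it about the 10.

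RNA came from the Achilles and plantaris tendons, the hindlimb plantarflexor tendons, of untreated wild-type C57Bl/6 mice aged 4 months. There were 2 arrays from males and 2 from females. Mice of both sexes were under ketamine and xylazine when the tendons were taken, and both tendons of an animal were combined. The labels call the cells tenocytes, but whole tendon was homogenized, and 3 RNA wells are listed for each sample, with no word on pooling. No label states that the samples of a sex came from separate animals, so the spread between them may be technical.

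Immediate early genes are transcribed within minutes of a stimulus such as stretch, a growth factor or stress, without new protein synthesis, and their mRNAs are short-lived. Many are switched on when MAP kinases act on serum response factor and its ternary complex partners, or when kinases act on CREB. FOS and JUN proteins pair through leucine zippers to form AP-1, whereas EGR proteins are zinc finger factors that bind GC-rich DNA. In tendon, EGR1 and EGR2 are known for a part in collagen gene expression and tendon formation, and EGR1 responds to mechanical load.

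RefSeq (build GRCm38.p6) gave start-site windows that were read for 7 of the 10 genes, all but Egr1, Egr3 and Ier2. Upstream sequences are shown for 4 genes that were higher in both male arrays than in both female arrays (Fos, Fosb, Junb and Egr2) and for Fosl2, which lay the other way. Each run is the 250 bases before an annotated start, 5′ to 3′ on the gene's strand. Capitals mark the cAMP response element core TGACG on either strand, the CArG box bound by serum response factor, the EGR motif GCGNGGGCG on either strand, and TATAAA.
Fos (chr12:85473640-85473889, plus strand): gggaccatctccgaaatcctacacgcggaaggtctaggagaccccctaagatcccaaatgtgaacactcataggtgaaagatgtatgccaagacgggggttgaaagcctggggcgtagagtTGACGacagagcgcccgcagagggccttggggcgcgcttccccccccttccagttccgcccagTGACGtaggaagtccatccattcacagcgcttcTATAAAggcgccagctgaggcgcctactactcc
Fosb (chr7:19310046-19310295, minus strand): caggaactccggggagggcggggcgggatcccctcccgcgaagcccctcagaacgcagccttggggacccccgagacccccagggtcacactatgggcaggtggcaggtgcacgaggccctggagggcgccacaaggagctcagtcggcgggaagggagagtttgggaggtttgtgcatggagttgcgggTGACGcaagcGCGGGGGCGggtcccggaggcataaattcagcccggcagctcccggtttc
Junb (chr8:84978749-84978998, minus strand): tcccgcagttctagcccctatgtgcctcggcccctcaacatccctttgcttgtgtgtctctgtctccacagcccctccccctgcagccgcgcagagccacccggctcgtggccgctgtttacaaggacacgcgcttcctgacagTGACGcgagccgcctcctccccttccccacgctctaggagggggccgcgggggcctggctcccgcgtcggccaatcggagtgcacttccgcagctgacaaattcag
Egr2 (chr10:67537619-67537868, plus strand): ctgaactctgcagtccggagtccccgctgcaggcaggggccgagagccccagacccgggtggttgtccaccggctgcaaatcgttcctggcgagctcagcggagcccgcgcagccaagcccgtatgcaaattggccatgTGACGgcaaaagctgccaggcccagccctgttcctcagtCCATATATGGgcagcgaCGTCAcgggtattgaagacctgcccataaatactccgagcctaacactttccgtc
Fosl2 (chr5:32136222-32136471, plus strand): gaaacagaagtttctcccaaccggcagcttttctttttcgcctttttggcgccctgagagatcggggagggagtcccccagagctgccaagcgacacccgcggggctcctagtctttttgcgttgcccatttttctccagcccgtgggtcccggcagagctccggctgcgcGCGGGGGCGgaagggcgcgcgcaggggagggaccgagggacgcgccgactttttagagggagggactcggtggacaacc

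The TGACG core was found in 5 of the 7 genes, Fos, Fosb, Junb, Egr2 and Atf3, against 19.8% of 27025 genes with windows of this length. In Fos it occurred at 129 and at 66 bases before the start, and TATAAA began 33 bases before it. A CArG box was found for Egr2 alone, in 4 of its 5 windows, against 1.62% of genes; several of these windows overlap. The EGR motif was found in Fosb and Fosl2, against 5.33% of genes. It started 50 bases before the start of Fosb and 79 bases before that of Fosl2. The full element TGACGTCA, which contains the core, and the AP-1 motif TGANTCA were found in 0 of the 7, against 1.77% and 7.82% of genes. Jun held none of these motifs in its window. These are matches of letters in the windows read, and bases outside them were not searched.

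Labels and tissue were checked on all 4 arrays. The male arrays gave 2.22 ± 0.34 (SD, n = 2) for Xist and 4.71 ± 0.35 for Y-linked Eif2s3y, against female values of 7.69 ± 0.49 and 2.26 ± 0.86 (SD, n = 2 each). All 6 tendon markers measured, among them Tnmd, Scx and Mkx, had means above the median of probe set means, 2.46. Skeletal muscle markers were also strong, with a median of 9.11 to 10.36 per array, lowest in female 2. The array medians over all rows were between 2.27 and 2.30, a level at which signal was not told from background.

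Most of the 10 genes were at their highest in a male array and lower in females, and Fos and Egr1 had the widest sex differences in size. Values below are log2 RMA values, so a difference of 1 is a factor of 2 in signal, and levels of different probe sets are not set against each other. Of the 10 genes, 9 had a lower mean in females and 1, Fosl2, a higher one. Their median difference, female minus male, was -0.49, beside -0.01 over all 23521 probe sets tested, of which 51.2% lay below 0. Without male 2 the median was -0.32, and 6 of the 10 were lower in females. Both male arrays lay above both female arrays for 6 of the 10, Fos, Fosb, Junb, Egr1, Egr2 and Ier2, where 17.5% of all probe sets did so. Both female arrays lay above both male arrays for Fosl2 alone, where 15.8% did so. The sexes overlapped for Jun, Egr3 and Atf3. Whole tissue was measured, so fewer cells of a type and less RNA per cell cannot be told apart.

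In the fit across all probe sets, limma called 0 of 23521 probe sets (0.0%) at a Benjamini-Hochberg adjusted p under 0.05, and therefore 0 of the 10 genes. The lowest adjusted p of any probe set in limma was 0.772. Even the sex genes Xist and Eif2s3y, with female minus male differences of 5.47 and -2.45, were thus not called. At an unadjusted p under 0.05 limma listed 1056 probe sets (4.49%), 3 of the 10 among them (Fos, Egr1 and Ier2). All 3 were lower in females, as were 1.85% of all probe sets at that p. As the 10 were put forward with this contrast known, nothing is read from that count. With 2 arrays against 2, an exact permutation test cannot give a two-sided p below 0.333.

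**Figure D1:**
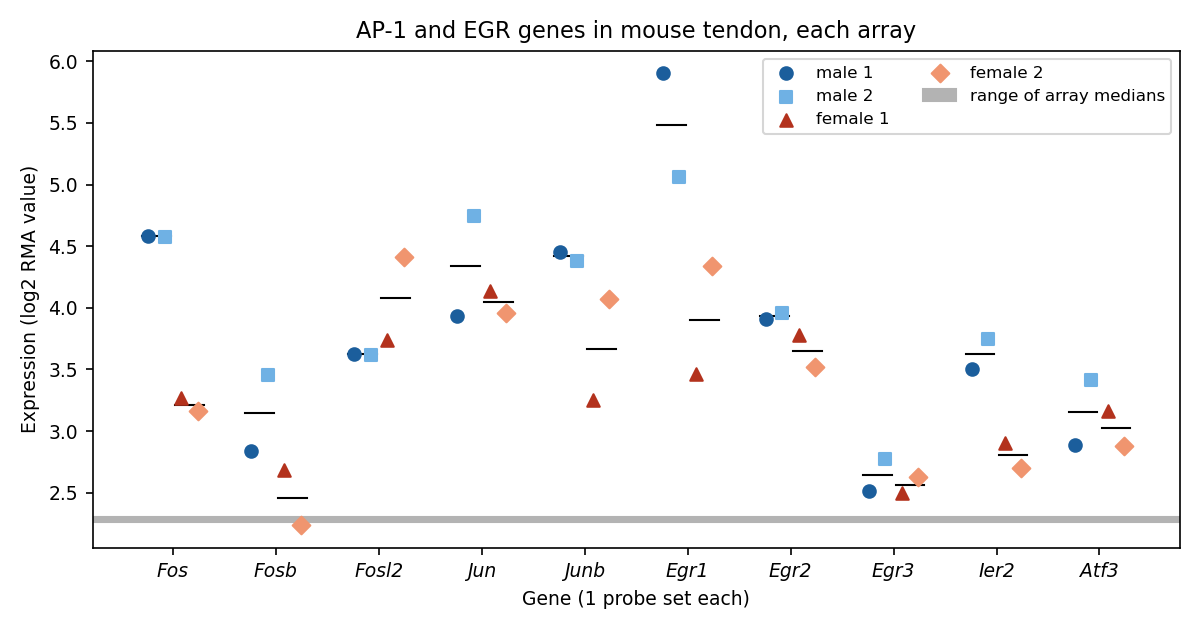
Log2 RMA value (vertical axis) of each of the 10 genes on each array, with circles and squares for males 1 and 2, triangles and diamonds for females 1 and 2, short lines for the mean of each sex, and a grey band for the range of the 4 array medians. For Fos both males sit at 4.58 above females at 3.27 and 3.16, for Egr1 the 4 arrays spread from 3.47 to 5.90, and Fosb in female 2 (2.24) lies below the band.

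Among the FOS genes, Fos itself was at 4.58 in male 1, 4.58 in male 2, 3.27 in female 1 and 3.16 in female 2. The males were nearly equal and the lower male lay 1.31 above the higher female. Fos encodes the founding AP-1 partner of JUN. Its difference was -1.36 (SE 0.14), a 2.57-fold higher signal in males.

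Fosb, a close relative whose protein also pairs with JUN proteins, was at 2.84 and 3.46 in males 1 and 2 and at 2.68 and 2.24 in females 1 and 2. The males were above the females, but male 1 exceeded female 1 by only 0.16, and female 2 lay below its array's median. The measured difference was -0.69 (SE 0.29), and no fold is given since signal that low was not told from background.

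Fosl2, which encodes the FOS-related protein FRA-2, was at 3.63 and 3.61 in the males and at 3.74 and 4.41 in females 1 and 2. Female 2 was the high array, and female 1 lay only 0.11 above the males. The difference of 0.46 (SE 0.27) was narrower than the gap of 0.67 between the females.

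Of the JUN genes, Jun was at 3.93 and 4.74 in males 1 and 2 and at 4.13 and 3.96 in females 1 and 2. Male 2 stood above the other arrays, and male 1 was the lowest of all. JUN can pair with itself as well as with FOS proteins. The difference of -0.29 (SE 0.31) was smaller than the gap of 0.81 between the males.

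Junb, whose protein pairs with FOS proteins and can restrain JUN, was at 4.46 and 4.38 in males 1 and 2 and at 3.25 and 4.07 in females 1 and 2. Female 1 was the low array, while female 2 came within 0.31 of the lower male. The difference was -0.75 (SE 0.31), against a gap of 0.82 between the females.

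Among the EGR genes, Egr1 was at 5.90 and 5.06 in males 1 and 2 and at 3.47 and 4.34 in females 1 and 2. All 4 arrays were far apart, with male 1 highest, female 1 lowest and a space of 0.72 between the sexes. Its difference was the widest of the 10 in size, -1.58 (SE 0.43), with a 2.99-fold higher signal in males. The gaps within a sex were wide as well, 0.87 between the females and -0.84 for male 2 minus male 1.

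Egr2, known also for its part in myelination and in tendon formation, was at 3.91 and 3.96 in the males and at 3.78 and 3.52 in females 1 and 2. The males were slightly above the females, by 0.13 at the nearest pair. Its difference was -0.29 (SE 0.17).

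Egr3, the zinc finger gene needed for muscle spindles, was at 2.51 and 2.77 in males 1 and 2 and at 2.50 and 2.63 in females 1 and 2. The sexes overlapped, all values lay close to the array medians, and the difference was -0.08 (SE 0.17).

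Ier2 encodes a short nuclear protein induced by growth factors. It was at 3.51 and 3.75 in males 1 and 2 and at 2.91 and 2.70 in females 1 and 2. The lower male was 0.60 above the higher female, and the difference of -0.83 (SE 0.18) exceeded both gaps within a sex.

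Atf3, a stress-induced factor whose protein can form repressing dimers, was at 2.88 and 3.42 in males 1 and 2 and at 3.16 and 2.88 in females 1 and 2. Male 2 was highest, and male 1 and female 2 were level. Its difference was -0.13 (SE 0.25).

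The genes were then compared array by array to see whether they moved together. In male 2, 9 of the 10 lay above their own mean over the 4 arrays, and in male 1 there were 6. In females 1 and 2 the counts were 1 and 3. Over all probe sets the shares above the mean were 49.5%, 49.8%, 47.8% and 47.8% for males 1 and 2 and females 1 and 2. The median deviation of the 10 genes was 0.08 in male 1, 0.35 in male 2, -0.12 in female 1 and -0.25 in female 2. The highest array was male 2 for 6 genes, male 1 for Fos, Junb and Egr1, and female 2 for Fosl2. For Fos the males differed by only 0.003, so their order carries no weight. Female 1 was highest for 0 of the 10. Of all probe sets, 28.1% and 23.2% were highest in males 1 and 2, and 23.8% and 24.8% in females 1 and 2.

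**Figure D2:**
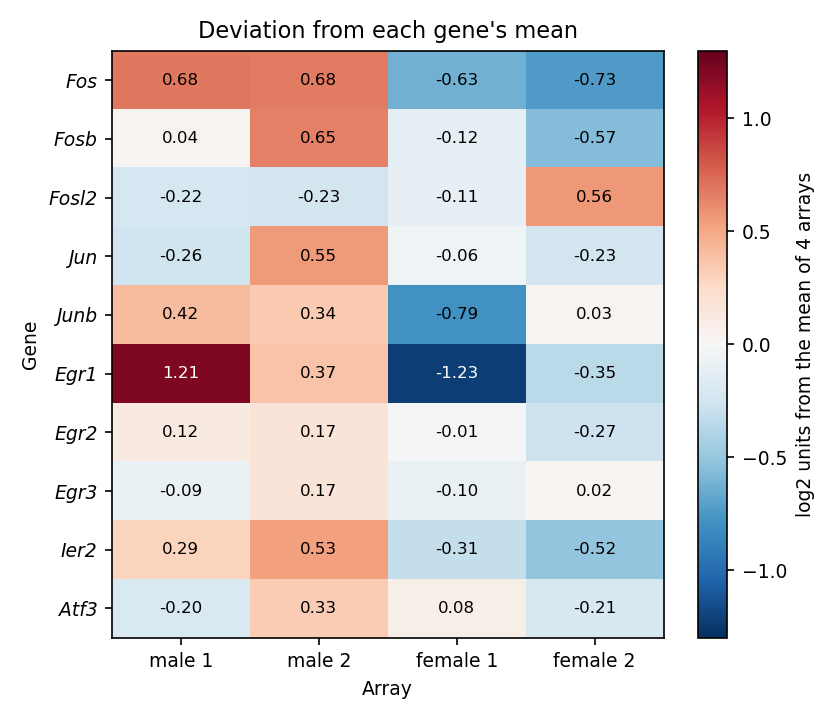
Deviation of each gene (rows) on each array (columns) from its own mean over the 4 arrays, in log2 units, with red above and blue below the mean. Egr1 spans 1.21 in male 1 to -1.23 in female 1, male 2 is above the mean for every gene except Fosl2, and Fosl2 is above it in female 2 alone.

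Within a sex the genes did not move as 1 block. Male 2 exceeded male 1 for 6 of the 10 and lay below it for 4, with a median of 0.15, where 50.2% of all probe sets were higher in male 2. Female 2 exceeded female 1 for 4 and lay below it for 6, with a median of -0.14, where 49.9% of all probe sets were lower in female 2. Fosb, Jun, Egr2, Ier2 and Atf3 were higher in male 2 than male 1 and higher in female 1 than female 2, a pattern shown by 26% of probe sets. Junb, Egr1 and Fosl2 had the opposite order in both sexes, a pattern shown by 25.8%. Fos was nearly level within each sex, and Egr3 was higher in array 2 of both sexes. These patterns were named after the values were seen, and no test was made of them.

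For 5 of the 10 genes, Fos, Fosb, Egr1, Egr2 and Ier2, the sex difference was wider than both gaps between replicates, as for 21.3% of all probe sets. For Fosl2, Jun, Junb, Egr3 and Atf3 at least 1 replicate gap was wider than the sex difference. The median size of the gap within males was 0.25 for the 10 genes and 0.21 for all probe sets. Within females it was 0.27 and 0.21. The median size of the sex difference was 0.57 and 0.15. A sex difference is taken between means of 2 arrays and a gap between single arrays, so their sizes are not like measures.

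**Figure D3:**
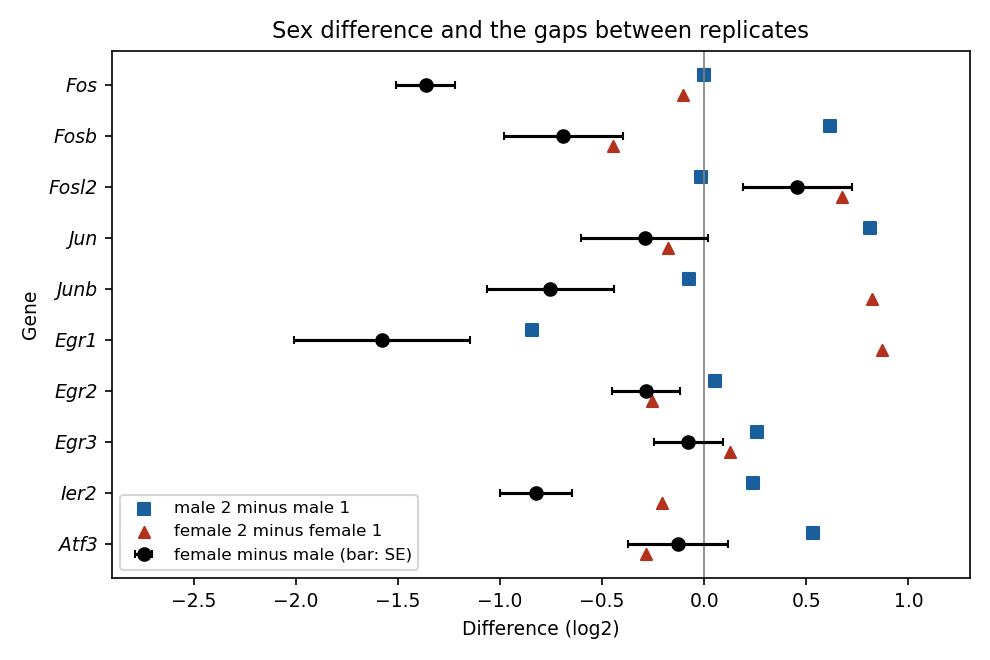
Differences on the log2 scale (horizontal axis) for each gene, with black circles for female minus male (bars: SE), blue squares for male 2 minus male 1 and red triangles for female 2 minus female 1. For Fos the sex difference of -1.36 stands far from replicate gaps near 0, whereas for Junb and Egr1 the female gap is above 0.8.

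Leaving out 1 array in turn kept the direction of 7 of the 10 genes. Without male 2, only 6 of the 10 were lower in females, since Jun, Egr3 and Atf3 were then at 0.11, 0.05 and 0.14. Without female 2, Atf3 was at 0.01 and 8 of the 10 were lower. Egr1 ranged from -2.01 without female 2 to -1.14 without female 1. Fos ranged from -1.42 to -1.31. Junb was at -1.16 without female 2 and -0.34 without female 1. Fosb was at -0.38 without male 2, and Fosl2 was at 0.12 without female 2.

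The remaining members of the pathway were examined from lists, none of which had a member called by limma in either direction. Among AP-1 and related leucine zipper partners, 3 of 10 were lower in females and 7 higher, with a median of 0.08. Jund, the JUN gene that is expressed without a stimulus, was at 7.26 and 7.78 in males 1 and 2 and at 7.84 and 7.28 in females 1 and 2, so the sexes overlapped. Batf, which encodes an AP-1 partner of immune cells, was at 3.61 and 2.80 in the males and at 2.48 and 2.59 in the females (-0.67, SE 0.31). Atf7, which encodes a CREB-related factor, lay the other way at 0.67 (SE 0.36), with male 1 lowest and male 2 (5.17) close to female 2 (5.18). Fosl1 has no value here.

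The probe sets used for the EGR relatives overlapped between the sexes. Egr4 was between 1.81 and 2.18 on the 4 arrays, below every array's median. Nab1 and Nab2, which encode co-repressors that bind EGR proteins, differed by -0.10 (SE 0.42) and -0.12 (SE 0.34). The other probe set of Nab2 did not overlap, with males 1 and 2 at 4.33 and 3.39 and females 1 and 2 at 3.30 and 3.13, a difference of -0.65.

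Other immediate early genes were about evenly split, with 17 of 32 lower in females, 15 higher and a median of -0.03. Both male arrays lay above both female arrays for 5 of them and both female arrays above for 5, close to the shares of all probe sets, 17.5% and 15.8%. Socs3, an inhibitor of cytokine signalling, was at 5.12 and 4.56 in males 1 and 2 and at 2.91 and 3.57 in females 1 and 2, the same order of arrays as Egr1 and Junb. Its difference was -1.60 (SE 0.32), and that of its other probe set was -0.35. That other probe set had female 1 above female 2, at 3.06 and 2.54, so it did not share the order of arrays. Sik1, a kinase gene induced through CREB, lay the other way, at 3.83 and 4.52 in the males and 5.68 and 5.11 in the females (1.22, SE 0.33).

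Genes that carry the signal to these promoters were split evenly, 6 of 12 lower in females, with a median of -0.09. Srf, the gene of serum response factor, was at 3.15 and 4.38 in males 1 and 2 and at 4.22 and 3.83 in females 1 and 2, so the sexes overlapped. Elk1, a ternary complex factor gene, was at 3.88 and 4.17 in the males and at 3.24 and 3.39 in the females (-0.71, SE 0.18). Map2k1, the gene of the kinase MEK1, was at 4.49 and 3.55 in the males and at 2.95 and 2.16 in the females (-1.46, SE 0.44). In female 2 it lay below the array's median of 2.28, where signal was not told from background. Of MAP kinase feedback genes 4 of 9 were lower (median 0.07), and their widest differences were Spry4 at -0.35 (SE 0.28) and Spred1 at 0.33 (SE 0.34). In female 1 Spry4 (2.16) also lay below the array's median of 2.27.

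Heat shock genes numbered 5 of 8 lower in females, and their median was -0.03. The co-chaperone gene Bag3 was at 0.79 (SE 0.43), with male 1 lowest and male 2 (7.71) close to female 2 (7.73). Hsph1, a heat shock protein gene, was at -0.56 (SE 0.21).

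Of tendon genes known as targets of EGR1 or EGR2, 7 of 8 had a lower female mean, as did 51.2% of all probe sets, and the median was -0.17. Both males lay above both females for 2 of the 8, Tgfb2 and Tnmd, where 17.5% of all probe sets did so. Female 2 was the highest array for Col1a1 (6.54) and Col3a1 (6.17). Whether these genes followed Egr1 or Egr2 was not tested. Tgfb2, which encodes a growth factor of tendon cells, was at 5.81 and 5.65 in the males and at 5.02 and 5.09 in the females (-0.67, SE 0.15). Tnmd, the tenomodulin gene, was at -0.43 (SE 0.21), also without overlap. Col1a1 and Scx overlapped, at -0.10 (SE 0.22) and -0.02 (SE 0.22). Of genes known as AP-1 targets, 7 of 11 were lower, with a median of -0.06. The urokinase gene Plau was at 3.54 and 4.55 in the males and at 2.92 and 2.75 in the females (-1.21, SE 0.37). Timp1, a metalloproteinase inhibitor gene, differed by -1.11 (SE 0.84), with overlap, from 6.68 in male 1 to 3.82 in female 1.

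**Figure D4:**
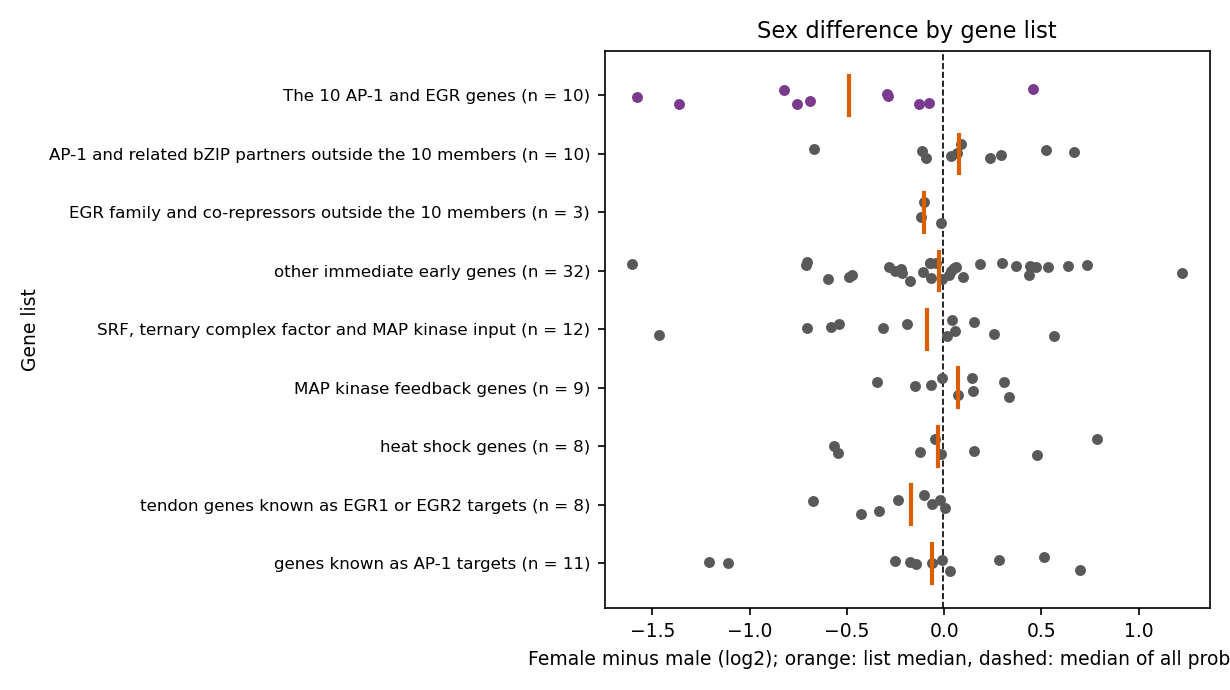
Female minus male difference on the log2 scale (horizontal axis) for every measured gene of each list (points), with the list median in orange and the median of all probe sets dashed. The 10 AP-1 and EGR genes have a median of -0.49, and the medians of the other lists lie between -0.17 and 0.08.

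Genes outside these lists with a profile most like the median profile of the 10 were Bag6, Ift43, Pitx1, Ndn and Nap1l5. Their root mean square distance from it over the 4 arrays was between 0.02 and 0.04 log2 units. Pitx1 in female 2 (2.21) lay below the array's median of 2.28. Of the 10 genes, Egr2 was nearest to the median profile (0.11) and Egr1 farthest (0.79). With only 4 arrays many genes come close, and 481 of the 7012 probe sets compared lay within 0.2.

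Markers of other cell types also differed between arrays. Adipocyte markers were higher in females for 5 of 6, with a summed linear signal of 1165 and 1611 in males and 1586 and 1773 in females. Fabp4, whose sexes overlapped (0.19), made up most of that sum. The widest differences of the adipocyte markers were Plin4 at 1.59 and Cidec at 1.57. Endothelial markers were higher for 5 of 6, with sums of 123 and 222 in males and 207 and 258 in females. Macrophage markers were higher for 6 of 7, with sums of 347 and 414 in males and 349 and 697 in females. Skeletal muscle markers were lower in females for 6 of 8, with sums of 9887 and 9494 in males and 9474 and 6480 in females. Female 2 was low for Myh4 (7.35, elsewhere 10.20 to 10.61) and Actn3 (6.68, elsewhere 9.41 to 10.01). The 2 that were higher in females were Myh7, by 1.13 without overlap, and Acta1, by 0.07 with overlap. All 5 neutrophil markers and all 4 mast cell markers had means below the median of probe set means, but S100a8, a neutrophil gene, was at 3.47 in male 1 and between 1.64 and 1.81 on the other arrays. The neutrophil sum was 28.4 in male 1 and between 17.7 and 19.2 elsewhere, and most of that excess was S100a8 itself. Among the other neutrophil markers, S100a9 was highest in female 1 and Csf3r in female 2. Ly6g and, by a very small margin, Mpo were highest in male 1. Tendon markers had sums of 538 and 496 in males and 408 and 906 in females, with 4 of 6 lower in females. Thbs4 and Fmod, at 8.28 and 8.85 in female 2, made up most of the high sum there. The median log2 value of the tendon markers was 5.76 and 5.47 in males 1 and 2 and 5.23 and 5.46 in females 1 and 2. By that measure female 2 was not the high array. Of 3 keratinocyte markers 2, Krt1 and Krt10, had both males above both females, with differences of -0.49 and -0.27, and the sums were 20.0 and 19.6 in males and 16.4 and 15.9 in females. The part of these cell types in the values of the 10 genes was not tested.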

How the data were processed

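Expression was measured on 4 Mouse Gene ST 2.1 arrays, 2 per sex. Per the labels' protocols, amplified cDNA (NuGEN Ovation PicoSL) was biotinylated. The log2 values deposited by the authors were used without further normalization; oligo and RMA are named in the submitters' processing notes. Their versions and the summary level are not given in the sources used here, and the range of the values gave the log2 scale. Of 41345 rows, the 23521 with exactly 1 gene symbol in GEO's platform annotation were tested. Sex was fitted with limma 3.58.1 (lmFit and eBayes) in R 4.3.3, with Benjamini-Hochberg adjustment across these probe sets, and SEs are those of the moderated fit. The fit was tested on simulated data in which every probe set had the same spread. Spread differs between real probe sets, so that test does not show which differences could be detected here. The number of arrays limits the precision, and the median SE of a difference was 0.187.

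The genes and lists were chosen with earlier results of these data known. Named by rule were the 10 genes, the 2 widest differences of each list, Jund, Fosl1, Egr4, Nab1, Nab2, Srf, Col1a1, Scx and Tnmd, and the 5 genes of nearest centred profile. For the latter, probe sets needed a mean above the median and a range of at least 0.5, and predicted, small RNA and receptor cluster genes were left out. Per gene the probe set of highest mean was used. Motifs were searched in the 250 bases before each RefSeq start. Figures were drawn with matplotlib 3.10.9. Alternatives covered normalization, filters, the prior, array weights, a replicate block, probe set choice and each array left out.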

Additional observations from a re-analysis of the deposited data

How the results depend on the processing

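Limma called 0 probe sets under all 12 alternatives, with 472 to 1870 at an unadjusted p under 0.05. Under the 8 alternatives that kept all arrays, 9 of the 10 genes were lower in females and 6 had both males above both females. The median difference lay between -0.53 (quantile normalization once more) and -0.46 (arrays centred on their medians). Only these renormalizations changed the values of the 10 genes. The other alternatives that kept all arrays could not move these counts or the median, so their agreement is no support. With 1 array left out, the spread came from the sex that kept both arrays and was taken to hold for the single array. The median then ranged from -0.71 without male 1 to -0.32 without male 2, and was -0.34 without female 2. The number lower in females ranged from 6 to 9, and the number without overlap, males above, from 6 to 9. With 1 array against 2 such separation is more frequent for any probe set, 33.1% to 35.6% of all against 17.5% with all arrays, so no rise is read from it. With the replicate block, limma called 0 probe sets (981 at an unadjusted p under 0.05). The median stayed at -0.49, which such a block cannot change when each number holds 1 array of each sex. Same-numbered arrays did not deviate together (correlation across probe sets -0.06), so the numbers are not taken as pairs. Averaging a gene's probe sets could change nothing for the 10 genes, which have 1 each. With 2 arrays per sex, and Fosb and Egr3 near the array medians, small differences were not detectable. Large ones were not called either, as Xist (5.47) and Eif2s3y (-2.45) were among the probe sets not called. An empty list of calls therefore does not show that the sexes were alike.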
